A study of Homo sapiens with 4 samples.

Results

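The genes described here encode HNRNPM and 7 other proteins of the large assembly of splicing regulators (LASR), namely HNRNPH1, HNRNPC, HNRNPUL2, ILF2, DDX5, MATR3 and RBFOX2. They were chosen by name, by matching the gene names of the deposited tables to these 8 symbols, and no threshold on a measured value entered the choice, although earlier results of these data were known when the symbols were listed. All 8 were found among the 39306 genes of the tables, and all 8 were among the 20221 genes that held enough reads to be tested. Gene-level RNA sequencing values came from 4 libraries of MHCC97H, a human liver cancer (hepatocellular carcinoma) line known for its high metastatic capacity. Of these, 2 were control libraries of wild-type cells (genotype HNRNPM-wild type) and 2 were knockdown libraries of cells with a short hairpin RNA against HNRNPM (sh-HNRNPM, genotype HNRNPM-knockdown). The deposited value columns are named H97_NC1 and H97_NC2 for the wild-type libraries and H97_hnRNPM_sh1 and H97_hnRNPM_sh2 for the knockdown libraries. The labels and column names do not say what NC stands for, or whether a control hairpin was used, so the loss of HNRNPM and the carrying of a hairpin cannot be told apart. The labels do not say whether the replicates were separate cultures, nor whether sh1 and sh2 are 2 hairpins or 2 replicates of the same one, so the p-values may measure technical spread only. With 2 libraries a group, an exact permutation test of a single gene cannot give a p below 0.333, and the tests below rest on the spread that limma pools over all genes.

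LASR is a nuclear complex in which RBFOX2, a factor that binds GCAUG-type sequences in introns, sits together with several hnRNP proteins. HNRNPM binds GU-rich RNA, and within the complex it can recruit RBFOX2 to introns that lack a strong RBFOX2 site of their own. HNRNPM is known to oppose epithelial splicing regulators at the exons of adhesion and signalling genes. The tables give 1 value per gene, so they measure how much RNA of each subunit was present, and exon choice was not analysed here.

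The depth, the cell line markers and the spread of the libraries apply to all values below. The libraries held between 11498663 and 19659106 reads assigned to genes, with the knockdown libraries the shallower ones. A level is given as scaled RPKM, which is the deposited RPKM (reads per kilobase of exon, relative to all reads assigned to genes) divided by a trimmed-mean scaling factor of 0.972 to 1.03. Of the 11 liver and hepatocellular carcinoma markers listed, 10 were in the tables and 7 had a mean level of at least 1 scaled RPKM. KRT8 and KRT18, the keratins of simple epithelia, lay at 521 to 661 and 286 to 441 scaled RPKM, and the liver factor HNF4A at 6.49 to 7.64. Albumin was low, at 5.44 and 6.46 in the control pair against 1.70 and 1.75 in the knockdown pair, and AFP, APOA1 and TTR were below 1 in every library. The leukocyte marker PTPRC was at 0 in 3 libraries and at 0.0366 in the other, and the summed level of 4 fibroblast markers was 0.0985 and 0.134 in wild-type cells and 0.396 and 0.634 after knockdown. CD68 lay at 47.2 to 59.9, the endothelial markers summed to 9.06 and 9.69 in wild-type cells and 5.86 and 6.08 after knockdown, nearly all of it PECAM1, and the neuronal SYT1 lay at 2.09 to 2.71. The part of these genes in the results was not tested. A lower level in such bulk libraries can come from fewer cells that hold the RNA or from less RNA per cell, which cannot be told apart.

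HNRNPM, the targeted gene, spans chr19:8444767-8489114 on the plus strand of GRCh38. Its level was 52.1 and 53.1 scaled RPKM in the control libraries against 21.2 and 20.1 in the knockdown libraries. Both knockdown libraries lay far below both controls, and the replicates of each group differed by less than 2 scaled RPKM. The mean of 52.6 ± 0.665 (SD, n = 2) in wild-type cells and of 20.6 ± 0.775 (SD, n = 2) in knockdown cells left 39.2% of the control level. The log2 fold change, knockdown minus control, was -1.35 ± 0.0663 (SE), with a 95% interval from -1.51 to -1.18 and a limma adjusted p of 0.0027. Genes are said below to have risen or fallen where this p, adjusted by Benjamini-Hochberg over all tested genes, is under 0.05. HNRNPM was called lower under each of 14 other ways of processing the values. Only 1.66% of the tested genes had a larger absolute change. Between 1317 and 5695 reads lay behind each of its values.

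Among the 7 partners, RBFOX2 rose, DDX5 fell, and 5 did not pass the test. That makes 3 of the 8 genes called, 1 higher and 2 lower. Over all tested genes 24.9% were called, 11.1% higher and 13.8% lower. Abundant genes have smaller errors, and among the 7242 tested genes at least as abundant as RBFOX2, 38.2% were called. The 3 of 8 is close to that share, but it includes HNRNPM, the target of the hairpin. The 7242 genes had a median level of 13.2 scaled RPKM, against 35.9 for the 8 members. As deposited, without the scaling factors, the split of called genes was 2783 higher and 2234 lower instead of 2240 and 2792, while the 8 genes kept their directions. In scaled RPKM, control and knockdown values did not overlap for 7 of the 8 genes, HNRNPUL2 being the exception, against 67.6% of all tested genes. As deposited, HNRNPH1 was the exception instead. The median log2 fold change of the 7 partners was -0.07 and their median absolute change 0.195, where all tested genes had -0.03 and 0.277.

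**Figure D1:**
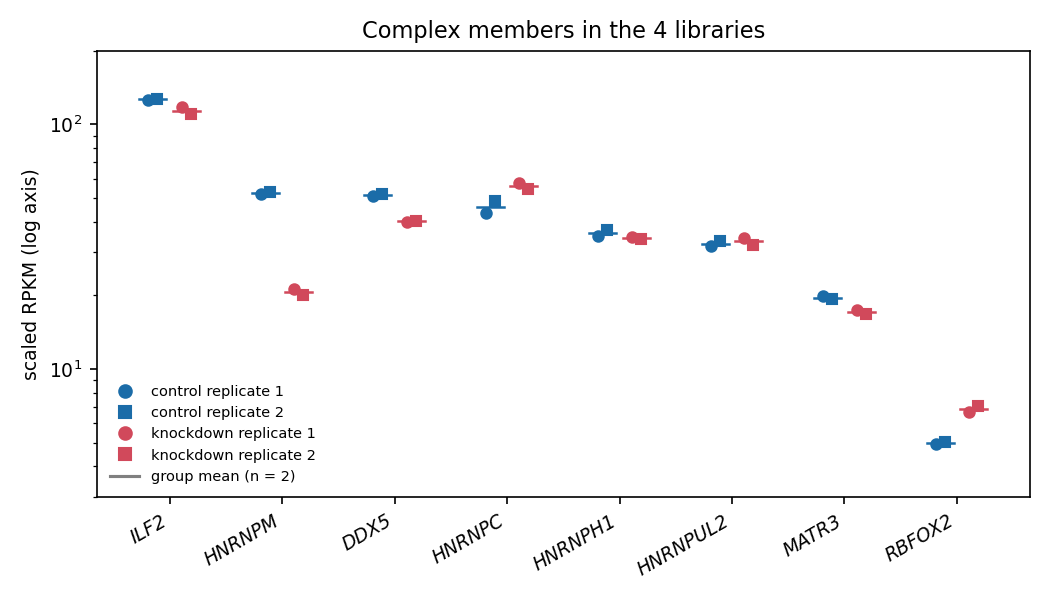
Level of the 8 genes in each library, in scaled RPKM on a log axis, ordered by the control mean; circles and squares are replicates 1 and 2, and bars are group means (n = 2). HNRNPM drops from 52.6 to 20.6, RBFOX2 lies at the bottom in both groups, and ILF2 at the top.

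RBFOX2, at chr22:35738736-36028425 on the minus strand, is the sequence-specific member around which the complex was defined. Its level was 4.92 and 5.02 scaled RPKM in wild-type cells and 6.70 and 7.06 after knockdown. Both knockdown values lay above both controls. Its log2 fold change was 0.46 ± 0.0894 (SE), a 1.38-fold rise with a 95% interval of 1.18 to 1.61 (limma adjusted p = 0.0205). RBFOX2 was the least abundant of the 8, with 827 to 961 reads a library, though still above 64.2% of the tested genes. The direction was the same in each of 14 alternatives, and the call was made in 9 of them. When any 1 of the 4 libraries was left out the change stayed between 0.40 and 0.52, but the limma adjusted p rose to between 0.0595 and 0.117.

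DDX5 (p68), at chr17:64499616-64508199 on the minus strand, is a DEAD-box RNA helicase with roles in splicing, transcription and microRNA processing. It measured 51.1 and 51.9 scaled RPKM in the controls against 40.0 and 40.4 with the hairpin. The values within a group were almost the same and the groups were well apart. The log2 fold change was -0.36 ± 0.0617 (SE), which is 0.781 of the control level with a 95% interval of 0.702 to 0.869 (limma adjusted p = 0.015). Behind each of its values lay 3453 to 7262 reads. Leaving out either knockdown library ended the call, with limma adjusted p-values of 0.138 without replicate 1 and 0.0972 without replicate 2, and moderation of the spread without a trend gave 0.061. The change stayed between -0.38 and -0.33 in all 4 of the fits with a library left out.

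HNRNPC, at chr14:21209136-21269494 on the minus strand, binds uridine-rich tracts of nascent transcripts and packages them into core hnRNP particles. Its level was 43.3 and 48.6 scaled RPKM in wild-type cells against 57.4 and 54.4 in knockdown cells. The knockdown values were the higher ones, but the controls differed more from each other than those of any other member. The log2 fold change of 0.28 ± 0.0820 (SE) missed the threshold (limma adjusted p = 0.0568), with a 95% interval of the fold from 1.06 to 1.40. It passed with the values as deposited (0.35, adjusted p = 0.0332), with median-of-ratios factors (0.31, adjusted p = 0.0411), with a stricter filter (adjusted p = 0.0251), with limma-voom on the recovered reads (adjusted p = 0.0046) and without control replicate 2 (0.37, adjusted p = 0.0426). Reads assigned to 7 named HNRNPC pseudogenes equalled 8.78% to 10.6% of those of HNRNPC in each library. Of the 50-base stretches of its annotated transcripts, 5.92% occur in transcripts of other genes, so the division of reads between HNRNPC and these copies is uncertain.

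HNRNPH1, at chr5:179614178-179634784 on the minus strand, binds runs of guanosines and acts on splice site choice and polyadenylation. It measured 34.9 and 37.1 scaled RPKM in the control pair against 34.5 and 34.1 in the knockdown pair. The groups were separated by less than 1 scaled RPKM, and they overlapped in the values as deposited. Its log2 fold change of -0.07 ± 0.0673 (SE) did not pass the test (limma adjusted p = 0.486). The fold had a 95% interval of 0.849 to 1.07.

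HNRNPUL2, at chr11:62712630-62727349 on the minus strand, is a relative of the scaffold attachment factor HNRNPU and takes part in the response to DNA breaks. Its levels were 31.8 and 33.3 scaled RPKM in wild-type cells and 34.4 and 32.1 after knockdown, the only member whose groups overlapped on this scale. As deposited, HNRNPUL2 did not overlap, at 31.3 and 32.3 RPKM in wild-type cells and 35.4 and 32.6 after knockdown. At 0.03 ± 0.0717 (SE) its log2 fold change did not pass (limma adjusted p = 0.782), with a fold between 0.902 and 1.16 at 95% confidence. The sign was negative, at -0.0012 and -0.0019, without control replicate 1 and without knockdown replicate 1. The readthrough gene HNRNPUL2-BSCL2 covers 44.5% of the exon length of HNRNPUL2 on the same strand, so reads of these genes cannot be fully separated. HNRNPUL2-BSCL2 itself had a log2 fold change of -0.05 (limma adjusted p = 0.646).

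ILF2 (NF45), at chr1:153661788-153671048 on the minus strand, is a nuclear RNA-associated protein with a dimerization domain. It was the most abundant member, with 126 and 127 scaled RPKM in the controls against 118 and 110 with the hairpin. Both knockdown values were below both controls. The log2 fold change of -0.15 ± 0.0710 (SE) did not pass (limma adjusted p = 0.167). The fold of 0.899 had a 95% interval of 0.796 to 1.02.

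MATR3, at chr5:139273752-139331677 on the plus strand, encodes matrin 3, a nuclear matrix protein that binds RNA and DNA and represses exons. It measured 19.8 and 19.4 scaled RPKM in the control pair against 17.5 and 16.7 in the knockdown pair. The groups were apart, but the log2 fold change of -0.20 ± 0.0688 (SE) missed the threshold (limma adjusted p = 0.0918), at a fold of 0.874 (95% interval 0.776 to 0.984). It passed only with limma-voom on the recovered reads (adjusted p = 0.0333). The annotation used here holds 2 genes of that name at overlapping positions, which the tables give as 1 row. SNHG4, a noncoding RNA host gene on the same strand, shares 555 exonic bases with it and fell (log2 fold change -0.37, limma adjusted p = 0.0392).

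**Figure D2:**
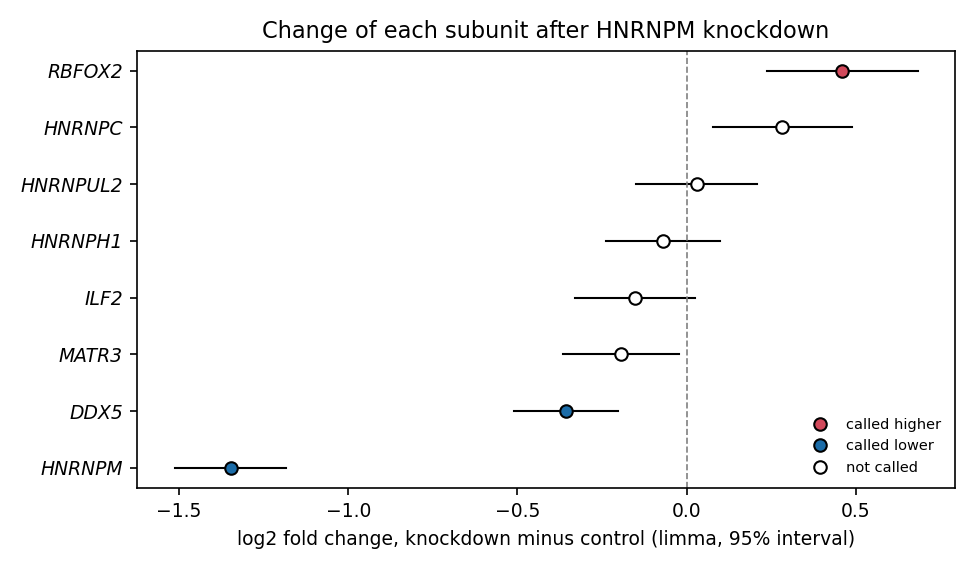
Log2 fold change, knockdown minus control, of the 8 genes with 95% limma intervals; filled points passed an adjusted p of 0.05. The interval of HNRNPM, -1.51 to -1.18, lies below those of the other genes, and those of HNRNPUL2, HNRNPH1 and ILF2 include 0.

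The order of the members by level per length changed around HNRNPM. In the controls the order of the means was ILF2 (126 scaled RPKM), HNRNPM (52.6), DDX5 (51.5), HNRNPC (46.0), HNRNPH1 (36.0), HNRNPUL2 (32.5), MATR3 (19.6) and RBFOX2 (4.97). The ranges of neighbouring genes did not overlap, although HNRNPM stood only 1.02 times above DDX5. The largest step between neighbours was from MATR3 to RBFOX2, a ratio of 3.94. In the knockdown libraries the order was ILF2 (114), HNRNPC (55.9), DDX5 (40.2), HNRNPH1 (34.3), HNRNPUL2 (33.3), HNRNPM (20.6), MATR3 (17.1) and RBFOX2 (6.88). HNRNPM thus moved from the second to the sixth place, and HNRNPH1 and HNRNPUL2 overlapped. The order rests on the exon length used. Per length of the longest coding transcript, HNRNPM was the third of the 8 in the controls at 115 and the fifth in the knockdown libraries at 45.1, and DDX5 stood at 148 in the controls, next to ILF2 at 151.

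Expressed against HNRNPM in the same library, each partner was more abundant after the knockdown. DDX5 stood at 0.979 and 0.978 of the HNRNPM level in wild-type cells and at 1.89 and 2.01 after knockdown. HNRNPC went from 0.831 and 0.915 to 2.71 and 2.71, and HNRNPH1 from 0.669 and 0.699 to 1.63 and 1.70. In the controls only ILF2 exceeded HNRNPM, at 2.41 and 2.40, and in the knockdown libraries only MATR3, at 0.825 and 0.835, and RBFOX2 remained below it. RBFOX2, the partner that HNRNPM can recruit, stood at 0.0944 and 0.0946 of HNRNPM in the controls against 0.316 and 0.352 with the hairpin. These ratios share HNRNPM as the denominator, so their common direction follows from its loss. HNRNPM made up 14.3% and 14.1% of the summed level of the 8 genes in wild-type cells and 6.43% and 6.38% after the knockdown. The sum of the 7 partners was 311 and 323 scaled RPKM in wild-type cells against 308 and 295 in knockdown cells.

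**Figure D3:**
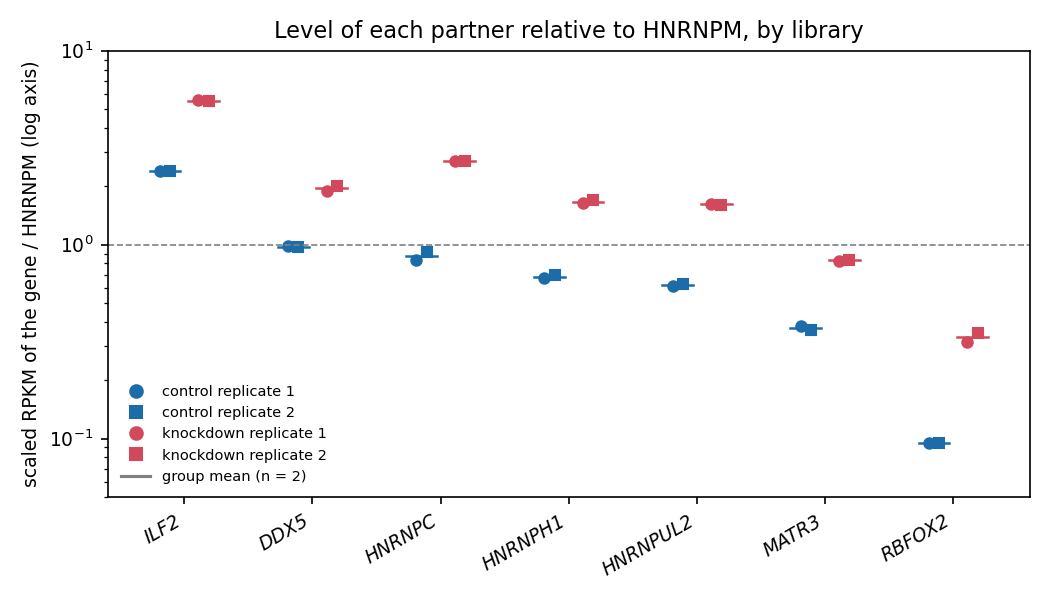
Ratio of each partner to HNRNPM within each library, from scaled RPKM, on a log axis; the dashed line marks equal levels. DDX5, HNRNPC, HNRNPH1 and HNRNPUL2 are below the line in the controls and above it in the knockdown libraries, while MATR3 and RBFOX2 are below it in all 4.

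Upstream sequence is printed for ILF2, the most abundant member, for HNRNPC, the partner closest to the threshold, and for HNRNPUL2, the partner with the smallest change, since their upstream windows lie outside annotated exons. These are RefSeq sequences of GRCh38.p14, each 195 bases long and lying 250 to 56 bases before the start site, on the minus strand. Of the 8 members 7 had an entry, and for the other 4 of these the far end of the window lay within an annotated exon. The windows are chr1:153671049-153671243 (ILF2), chr14:21269498-21269692 (HNRNPC) and chr11:62727513-62727707 (HNRNPUL2). They read 5′ to 3′, with motif matches in capitals:
ILF2: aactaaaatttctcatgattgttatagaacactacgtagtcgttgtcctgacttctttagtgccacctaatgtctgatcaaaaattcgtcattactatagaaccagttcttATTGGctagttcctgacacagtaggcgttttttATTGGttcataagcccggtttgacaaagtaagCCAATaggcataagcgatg
HNRNPC: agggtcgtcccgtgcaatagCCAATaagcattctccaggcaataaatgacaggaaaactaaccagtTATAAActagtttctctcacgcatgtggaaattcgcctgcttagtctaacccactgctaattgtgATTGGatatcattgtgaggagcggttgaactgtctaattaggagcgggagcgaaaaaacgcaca
HNRNPUL2: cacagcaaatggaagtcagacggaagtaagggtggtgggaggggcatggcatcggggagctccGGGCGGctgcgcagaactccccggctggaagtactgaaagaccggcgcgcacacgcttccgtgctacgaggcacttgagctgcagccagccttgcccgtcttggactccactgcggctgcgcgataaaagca
Motifs were searched on both strands. CCAAT, the motif of factor NF-Y, and TATAAA were searched as written. The windows end 56 bases before the start site, so motifs nearer to it were not searched. The GC box, bound by SP1, was searched as GGGCGG, and the E-box as CACGTG. Sites of AP-1 factors were searched as TGANTCA. Sites of ETS factors were searched as CCGGAAG. ILF2 held 3 CCAAT matches, starting at positions -139, -106 and -74 from the start site. HNRNPC held 2 CCAAT matches, at -230 and -119, and 1 TATAAA at -184, and HNRNPUL2 held 1 GC box at -187. Among 35116 RefSeq upstream windows of that length, 26.6% held CCAAT, 34% the GC box, 7.51% TATAAA, 4.31% the E-box, 5.14% TGANTCA and 4.9% CCGGAAG. The GC content was 37.9% for ILF2, 44.1% for HNRNPC and 63.1% for HNRNPUL2, beside a median of 56.9% over all windows. The RNA levels do not test any of these matches.

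Paralogs, which share domains with a member and in part its function, were measured for every member. Of 18 listed, 16 were in the tables and 13 could be tested. Of these 13, 0 passed at a limma adjusted p of 0.05, against 24.9% of all tested genes and 38.2% of those at least as abundant as RBFOX2. At an unadjusted p of 0.05 there was 1, GRSF1, and limma-voom on the recovered reads called 2, GRSF1 and STRBP, both higher. Over all 20221 tested genes limma-voom called 7232, and the number at an unadjusted p of 0.05 was not counted. The median log2 fold change of the 13 tested paralogs was -0.0007. MYEF2, the closest relative of HNRNPM, had 0 or 1 read in each library, which is at the limit of counting in both groups. RBFOX1 had 0 to 3 reads a library and RBFOX3, the neuronal paralog, 0.118 to 0.286 scaled RPKM, which leaves RBFOX2 as the RBFOX gene with RNA well above these levels in both groups. Among the relatives of HNRNPH1, HNRNPF measured 79.4 and 80.9 scaled RPKM in the control pair against 74.9 and 75.9 in the knockdown pair. Per exon length this was above HNRNPH1, but HNRNPF had 2887 to 5028 reads a library against 3780 to 6725 for HNRNPH1. Per length of its longest coding transcript, HNRNPH1 stood at 93.1 in the controls and 88.7 in the knockdown libraries. HNRNPF was not scaled that way, so which of them is more abundant is not settled. HNRNPH2 stood at 54.5 and 56.2 in wild-type cells and 54.4 and 52.6 after knockdown, HNRNPH3 at 19.5 to 22.1, and GRSF1 at 9.42 and 9.28 against 10.8 and 10.6 (log2 fold change 0.20, limma adjusted p = 0.107).

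DDX17, the helicase most like DDX5 and partly redundant with it, did not pass the test. It measured 26.9 in both controls and 26.3 and 25.8 scaled RPKM in the knockdown libraries. The log2 fold change was -0.05 ± 0.0632 (SE), with a limma adjusted p of 0.626 and a 95% interval of -0.20 to 0.11, and whether it differs from that of DDX5 was not tested. DDX17 stood at 0.522 of the DDX5 level in the controls and 0.648 in the knockdown libraries. HNRNPU and HNRNPUL1, the relatives of HNRNPUL2, were both more abundant than it, at 60.3 to 65.7 and 63.1 to 64.8 scaled RPKM. RALY, the relative of HNRNPC, lay at 19.4 to 22.7 with overlapping groups, and HNRNPCL1 at 0.30 to 0.691. ZFR and STRBP, relatives of ILF2, measured 14.5 to 15.4 and 4.83 to 6.09, and those of MATR3, RBM20 and ZNF638, measured 1.93 to 2.08 and 10.1 to 11.6. RALYL and ZFR2 were not analysed here.

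**Figure D4:**
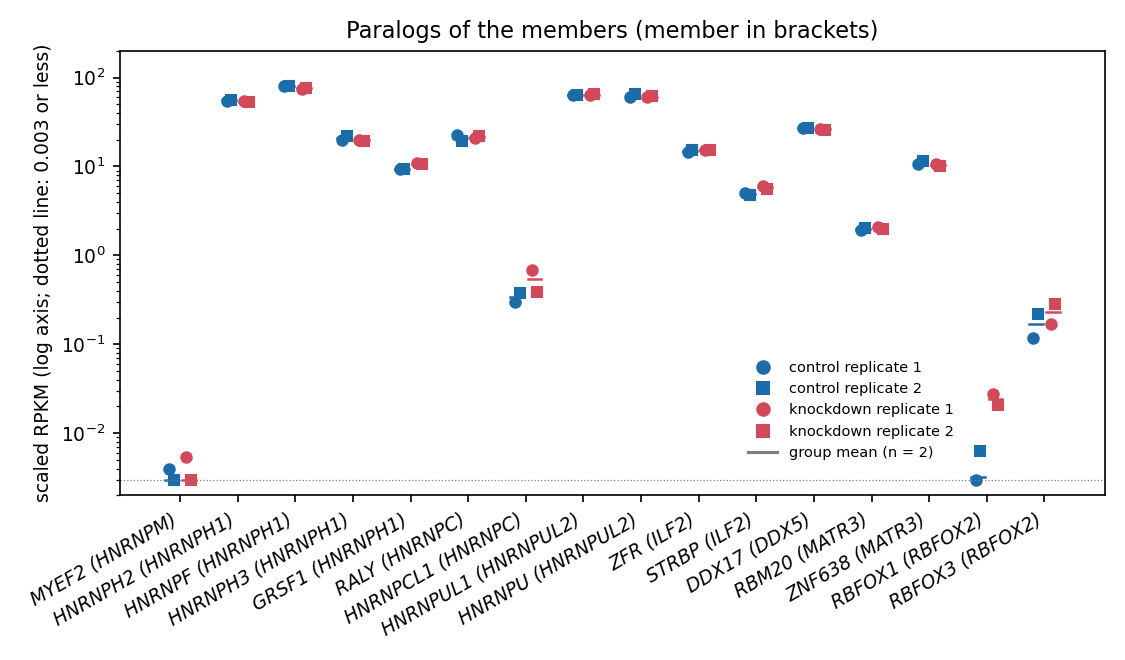
Level of the paralogs of the members in each library, in scaled RPKM on a log axis, with the member in brackets and values of 0.003 or less on the dotted line. MYEF2 and RBFOX1 lie at or near the bottom, and HNRNPF, HNRNPUL1, HNRNPU and HNRNPH2 are the most abundant.

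Lists of related genes were examined in the same fit, 109 genes in all, of which 98 were tested, with 6 higher and 11 lower. Beside this, 24.9% of all tested genes were called, and 38.2% of those at least as abundant as RBFOX2. Of 18 other hnRNP genes, 2 rose, 2 fell and 14 did not pass. HNRNPA1, a repressor of exons with UAGG sites, rose from 118 and 122 scaled RPKM to 148 and 143 (log2 fold change 0.27, limma adjusted p = 0.0405), and PTBP3 rose by 0.33. HNRNPL, which binds CA repeats, fell by 0.30 and RBMX by 0.23. With the values as deposited, HNRNPL and RBMX were not called (limma adjusted p 0.0616 and 0.11), while HNRNPA1 and PTBP3 were. HNRNPA2B1, the most abundant of the list by level together with HNRNPA1, measured 115 and 129 in the controls against 117 and 113 with the hairpin, with overlapping groups. None of these 4 calls was kept when any 1 library was left out, where the limma adjusted p-values ran from 0.0519 to 0.251.

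Regulators that share target exons with HNRNPM or RBFOX2 came next. Of 17 tested, 1 rose, 0 fell at a limma adjusted p of 0.05, and 16 did not pass, where 24.9% of all tested genes were called. PTBP1 and RBM47 were lower at an unadjusted p of 0.05 and with limma-voom, 2 genes in both cases. Over all 20221 tested genes limma-voom called 7232, and the number at an unadjusted p of 0.05 was not counted. MBNL2, a muscleblind factor, rose from 2.40 and 2.54 scaled RPKM to 3.68 and 3.42 (log2 fold change 0.51, limma adjusted p = 0.0316; 0.0803 to 0.124 with 1 library left out). ESRP1, the epithelial regulator that opposes HNRNPM, had 0 or 1 read in each library, and its relative ESRP2 measured 1.33 and 1.65 in wild-type cells against 1.49 and 1.85 in knockdown cells (limma adjusted p = 0.572). KHSRP and SRSF1, the most abundant of the list, stood at 55.3 to 60.9 and 49.3 to 51.0. RBM38 was not analysed here.

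Nuclear proteins and RNAs known to work with the members gave 1 rise, 4 falls and 14 genes that did not pass, of 19 tested. The share called over all tested genes was 24.9%. LMNB1, the lamin B1 gene of the nuclear envelope, fell from 32.3 and 33.0 scaled RPKM to 12.9 and 13.1, a log2 fold change of -1.33 ± 0.0655 (SE; limma adjusted p = 0.0027). YBX1, a cold-shock RNA-binding protein, rose from 173 and 160 to 290 and 279, a log2 fold change of 0.77 ± 0.0802 (SE; limma adjusted p = 0.0053). Both kept their calls whichever library was left out. The double-stranded RNA helicase DHX9 fell by 0.42, the RNA-editing enzyme ADAR by 0.36 and the paraspeckle protein PSPC1 by 0.49. DHX9 and ADAR lost their calls without either knockdown library (limma adjusted p 0.0852 to 0.135), and PSPC1 kept its call only without control replicate 1 (0.0366; otherwise 0.079 to 0.087). The paraspeckle RNA NEAT1 measured 60.1 and 76.3 in the control pair against 65.9 and 83.0 in the knockdown pair, and MALAT1 906 and 1168 against 1099 and 1086, both with overlapping groups.

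In the core spliceosome list of 34 tested genes, 2 rose, 5 fell and 27 did not pass, beside 24.9% called over all tested genes. The Sm proteins SNRPG and SNRPD2 rose by 0.55 and 0.41 on the log2 scale, SNRPG from 18.8 in both controls to 29.2 and 26.2 scaled RPKM. Among the large factors, the SF3b subunit SF3B3 fell by 0.48 (limma adjusted p = 0.0097), and the U5 components SNRNP200, PRPF8 and EFTUD2 by 0.36, 0.31 and 0.30. The helicase DHX15 fell by 0.30. With the values as deposited, PRPF8, EFTUD2 and DHX15 were not called (limma adjusted p 0.0515, 0.0791 and 0.0574). SF3B3 and SNRNP200 kept their calls there. SNRPG and SF3B3 lost their calls without knockdown replicate 1 (limma adjusted p 0.0611 and 0.0861), SNRNP200 without either knockdown library (0.144 and 0.0895), and PRPF8 kept its call only without control replicate 2 (0.0452). SNRPD2, EFTUD2 and DHX15 kept theirs in none of the 4 fits, with 0.0528 to 0.251. SNRPB, the most abundant of the list, measured 124 and 114 in wild-type cells against 110 and 113 scaled RPKM with the hairpin, and its change of -0.09 on the log2 scale did not pass (limma adjusted p = 0.396).

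**Figure D5:**
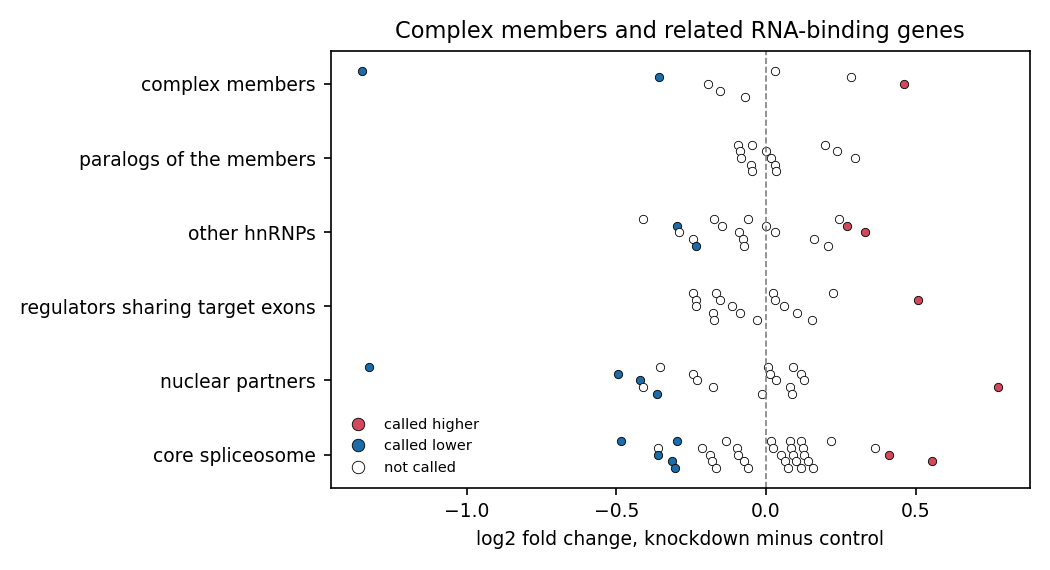
Log2 fold change, knockdown minus control, of the 8 genes and of each list of related genes, 1 point per tested gene, filled where the limma adjusted p was under 0.05. LMNB1 at -1.33 and YBX1 at 0.77 are the outermost points of the nuclear partners, and no paralog is filled.

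Genes that share exonic bases with a member were read alongside it. The antisense gene RP11-886P16.10 shares 345 bases, 6.14% of the exon length, with HNRNPM. It had 167 and 221 reads in the controls against 65 and 53 with the hairpin and fell by 1.11 on the log2 scale (limma adjusted p = 0.0064). Whether the authors counted by strand is not stated in the labels or files, so its reads and those of HNRNPM cannot be told apart where they overlap. CEP95 shares 506 bases with DDX5 on the opposite strand, with a log2 fold change of -0.13 (limma adjusted p = 0.531). SNAPIN shares 43 bases with ILF2 (0.08, adjusted p = 0.51), and SIL1, which shares 105 bases with MATR3 on the opposite strand, fell by 0.53 (adjusted p = 0.0226). HNRNPH1, HNRNPC and RBFOX2 shared no exonic bases by position. By sequence, 4.97% of the 50-base stretches of HNRNPH1 transcripts and 5.67% of those of MATR3 occur in transcripts of other genes.

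The genes whose pattern over the 4 libraries was most like that of HNRNPM were found by the Euclidean distance of centred log2 levels, among 8197 genes with a mean of at least 5 RPKM. They were LMNB1 (distance 0.0726), the neuronal adhesion molecule NRCAM (0.0738), the spindle protein ASPM (0.0853), MTCO3P22, a pseudogene of a mitochondrial gene (0.0924), and the TGF-beta receptor TGFBR2 (0.104). NRCAM went from 74.2 and 75.6 scaled RPKM in the controls to 28.3 and 28.1 in the knockdown libraries, and TGFBR2 from 38.0 and 42.7 to 15.9 and 15.4. With 4 libraries in 2 groups, likeness to HNRNPM amounts to a fall of the same size, and no partner of the complex was among these genes.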

How the data were processed

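RNA was measured in 4 libraries of MHCC97H cells, 2 wild type and 2 sh-HNRNPM. Per the labels' protocols, ribosomal RNA was depleted and libraries were made with a stranded kit with molecular identifiers and sequenced paired-end. The submitters' processing notes name StringTie 1.3.2, edgeR 3.12.1, featureCounts with Subread 1.5.1 and Trimmomatic 0.36. The notes name mm9, but the coordinates of the files fit human GRCh38, since 93.8% of 26367 names that occur once in GENCODE 29 have its start and end.

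The deposited values are RPKM that the authors computed per gene over annotated exons. All values (100%) were whole multiples of 1 read within 0.01 read, which gave 18317579 and 19659106 reads for the controls, 12708165 for knockdown replicate 1 and 11498663 for replicate 2. RPKM was divided by trimmed-mean factors (0.984, 0.972, 1.03 and 1.02), and log2(scaled RPKM + 0.1) was tested with limma 3.58.1 in R 4.3.3, with group as the only term, a spread moderated along expression, two-sided p-values and Benjamini-Hochberg adjustment over 20221 genes. The filter asked for 10 reads (at median depth) in 2 or more libraries and 15 reads in total. Residual degrees of freedom were 2 and prior ones 3.56. Fold changes are on the log2(scaled RPKM + 0.1) scale, which understates changes at low levels. The procedure was run on simulated data with the same spread set for all genes and both groups. The libraries do not share that setting, so the simulation does not measure the error rate of the calls here. Controls differed from each other by 6.75 and knockdown libraries by 2.03 times the sampling variance per gene, so no library was counted as a duplicate.

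The 8 genes, matched by name alone, and the lists of related genes were chosen with earlier results of these data known. Besides the 8 members, the genes named are, from each list, those past the threshold (up to 6) and the 2 most abundant, every paralog, every gene with overlapping exons, and the 5 genes most like HNRNPM. ESRP1, ESRP2, NEAT1, RBM47, PTBP1 and EFTUD2 were named after their values were seen. Some related genes are not reported here, and the lists are counted without them. Alternatives were other scaling factors, pseudocounts, filters and tests, a replicate block, and leaving out each library, where a group of 1 library is assumed to vary like the other. The length of the longest coding transcript was added after seeing the data. Proteins and exon usage were not analysed here.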

Additional observations from a re-analysis of the deposited data

How the results depend on the processing

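HNRNPM, HNRNPH1, HNRNPC, ILF2, DDX5, MATR3 and RBFOX2 kept their direction in 14 of 14 alternatives and HNRNPUL2 in 12, being reversed at -0.0012 without control replicate 1 and -0.0019 without knockdown replicate 1 (-0.0019 to 0.063 over the 4 fits with a library left out). HNRNPM was called in all 14, at -1.37 to -1.28. HNRNPC passed as deposited (0.35), with median-of-ratios factors (0.31), with the stricter filter (0.28) and with limma-voom (0.28), and ran from 0.20 to 0.37 with a library left out. With limma-voom MATR3 passed as well (-0.20), so that 5 of the 8 genes were called. RBFOX2 lost its call with no filter on low values (0.46, limma adjusted p = 0.0539) and with any library left out (0.40 to 0.52), and DDX5 with moderation that had no trend (-0.36) and without a knockdown library (-0.38 to -0.33 over the 4). With a library left out 1 to 3 of the 8 genes were called. The number of called genes was 5032, 1806 without the filter, where 39306 genes were tested, 7232 with limma-voom and 1712 to 3218 with a library left out. Of the related genes, 6 rose and 11 fell, against 11 and 19 with limma-voom, 3 and 3 without a trend, 2 and 5 without the filter, 18 falls with the stricter filter and 6 falls with the values as deposited. By list, limma-voom called 4 higher and 5 lower of the other hnRNPs, and 1 higher and 8 lower of the nuclear partners. In the core spliceosome list it called 3 higher and 7 lower. Genes in several of these lists are counted in each. The cause of these shifts was not tested. The labels number the replicates alike in both groups. The log2 difference between replicates 1 and 2 in the controls and that in the knockdown pair had a correlation of 0.0628 over 20221 genes. Same-numbered libraries thus hardly deviated together. With the replicate block 5129 genes were called, and 3 of the 8 genes, which were the same calls as without it. RBFOX2 had 827 to 961 reads a library, the fewest of the 8 genes, and the levels of MYEF2, RBFOX1 and ESRP1, at 0 to 3 reads, are too low for any comparison.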
